A study of Homo sapiens with 4 samples.

Results

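The transcripts of 10 genes around the transcriptional coactivators YAP and TAZ were followed in ACHN, a cell line from a human renal carcinoma, after silencing of PRR11. They were chosen by gene symbol, as the coactivators YAP1 and WWTR1 (TAZ), the DNA-binding partner TEAD1, and 7 genes known as YAP/TAZ targets or partners (CTGF, CYR61, ANKRD1, AMOTL2, LATS2, AJUBA and AXL). All 10 were found among the 36359 genes of the count table, CTGF and CYR61 under these older symbols of CCN2 and CCN1, and all 10 had enough reads to be tested. The cells had been grown in MEM with 10% serum and transfected by lipofection, 2 libraries being made after a control siRNA (siNC) and 2 after siPRR11. Every library thus came from 1 cell line that had received an siRNA. The siPRR11 duplex used and the time from transfection to harvest are not given in the sources used here, nor is whether the libraries came from separate cultures, so p-values measure the spread between these libraries, which may be technical.

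The libraries held between 59003839 and 92612749 counted reads, and the smallest count of any of the 10 genes in any library was 950, for which counting error alone is 3.24%. For comparisons between libraries, levels are given as CPM, the counts of a gene relative to the TMM-scaled size of its library. For comparisons between genes they are given as the deposited RPKM, which also divides by exonic length. Differences were tested with edgeR's quasi-likelihood method, and each log2 fold change of siPRR11 against siNC is followed by its standard error (SE) and its p-value adjusted over all genes tested. PRR11 was at 41.3 and 40.4 CPM in siNC and at 15.3 and 14.0 CPM in siPRR11 libraries, a change of -1.48 on the log2 scale (SE 0.0909, edgeR adjusted p = 3.35e-06). The epithelial keratin KRT8 (186 RPKM on average in siNC cells), vimentin (VIM, 136 RPKM) and the renal lineage factor PAX8 (43.6 RPKM) were present, whereas CA9, a marker of clear cell carcinoma, was at 0.0108 RPKM. The 4 endothelial markers summed to between 0.0263 and 0.0502 RPKM per library. The 5 leukocyte markers summed to between 20.3 and 28.1 RPKM, nearly all of it CD68, a lysosomal gene of many cell types, with the leukocyte surface gene PTPRC at 0.00405 RPKM in siNC cells.

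YAP and TAZ are coactivators without a DNA-binding domain of their own, which reach target genes through the TEAD family of transcription factors. In the Hippo pathway the kinases MST1 and MST2 (STK4 and STK3), with the adaptor SAV1, activate LATS1 and LATS2, and these phosphorylate YAP and TAZ so that they are retained in the cytoplasm or degraded. Several targets feed back on the pathway, since LATS2 and AMOTL2 restrain YAP, while AJUBA binds and inhibits LATS kinases. The matrix proteins CTGF and CYR61, the ankyrin repeat protein ANKRD1 and the receptor tyrosine kinase AXL are widely used as readouts of YAP/TAZ activity. Phosphorylation, location and amount of the proteins were not measured by RNA-seq.

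TEAD factors bind the bases GGAATG, and the promoters were searched for this core on both strands to show which of the 10 genes carry it close to the start. RefSeq promoter sequences (GRCh38.p14) gave 12 windows of 250 bases before a start site for 8 of the genes, and CYR61 and TEAD1 had no entry. The core was found in 6 of the 12 windows, belonging to 6 genes, against 11.9% of 35116 windows of the same length over all genes. CTGF had 3 matches, at 169, 104 and 95 bases before its start, and 0.0826% of all windows held that many. Its window, the best-known YAP/TAZ-responsive promoter, lies at chr6:131951373-131951622 on the minus strand and is shown 5′ to 3′ with the cores in capitals.
CTGF: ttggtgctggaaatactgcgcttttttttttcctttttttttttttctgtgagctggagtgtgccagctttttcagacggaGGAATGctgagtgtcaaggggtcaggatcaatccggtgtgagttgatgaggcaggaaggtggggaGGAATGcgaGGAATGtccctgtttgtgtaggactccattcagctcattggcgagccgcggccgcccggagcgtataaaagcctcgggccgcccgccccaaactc

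ANKRD1 had 2 matches, and YAP1, AMOTL2, AJUBA and AXL had 1 each, those of AMOTL2, AJUBA and AXL being in the window of a start site further inside the gene. Stretches of 30 bases with the core in capitals show that the flanks differ between genes. The stretch of AMOTL2 (chr3:134374499-134374528, minus strand) and that of AXL (chr19:41226531-41226560, plus strand) hold the core on the opposite strand, where it reads CATTCC. The others are from ANKRD1 (chr10:90921290-90921319 and chr10:90921198-90921227, minus strand), AJUBA (chr14:22976884-22976913, minus strand) and YAP1 (chr11:102110273-102110302, plus strand). Distances are to RefSeq starts. In the deposited coordinates ANKRD1 begins further out, at chr10:90921276, so that its stretch at 90921198-90921227 lies inside the gene there.
ANKRD1, 220 bases before the start: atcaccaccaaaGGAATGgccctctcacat
ANKRD1, 128 bases before the start: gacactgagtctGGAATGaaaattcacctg
AMOTL2, 69 bases before the start: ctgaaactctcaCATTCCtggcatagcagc
AJUBA, 59 bases before the start: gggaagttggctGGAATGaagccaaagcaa
AXL, 212 bases before the start: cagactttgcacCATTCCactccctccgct
YAP1, 162 bases before the start: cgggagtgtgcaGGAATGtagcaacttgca

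The window of LATS2, the gene whose transcript changed most, held no match. It lies at chr13:21061587-21061836 on the minus strand and is shown for comparison with that of CTGF.
LATS2: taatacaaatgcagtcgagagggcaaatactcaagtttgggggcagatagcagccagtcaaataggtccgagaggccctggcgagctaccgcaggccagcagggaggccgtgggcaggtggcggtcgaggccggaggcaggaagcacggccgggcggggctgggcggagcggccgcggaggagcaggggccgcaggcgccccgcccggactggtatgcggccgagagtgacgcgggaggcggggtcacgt

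AP-1 factors often bind beside TEAD, and a loose form of their site, TGANTCA with any middle base, was searched on either strand. It occurred in 1 window, that of ANKRD1, at 195 bases before the start, and in 6.57% of all windows. The ANKRD1 match reads TGATTCA, which lacks the middle C or G of the strict AP-1 site. The share of windows with the strict site was not computed. This ANKRD1 match shares no base with the TEAD cores of that window. These matches describe the letters of the reference, and binding was not measured.

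Of the 10 genes, LATS2 and CTGF rose and YAP1 fell in siPRR11 cells at an adjusted p-value under 0.05 by edgeR's quasi-likelihood test, the rule for calling a gene changed here. Over all 21630 genes tested, 7.61% were called higher and 9.14% lower, and among the 10424 genes averaging 3 or more in log2 CPM, as all 10 genes have, the shares were 11.6% and 14.3%. The count of 2 higher and 1 lower of 10 is close to these shares. The median log2 fold change of the 10 genes was 0.00, as was that of all genes tested, with 5 above and 5 below 0. The siNC and siPRR11 libraries did not overlap for 6 of the 10 genes, against 58.4% of all genes tested. In a bulk culture, fewer cells that express a gene and less RNA per cell cannot be told apart.

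**Figure D1:**
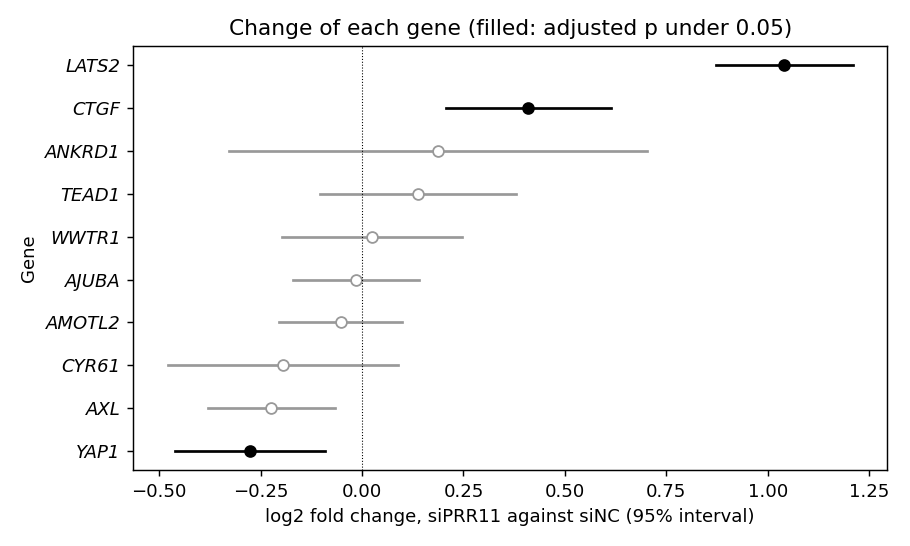
The log2 fold change of each gene in siPRR11 against siNC cells is drawn with the 95% interval of edgeR's fit, which is not adjusted for the number of genes. LATS2 lies at 1.04, apart from the other 9 genes, which lie between -0.28 and 0.41.

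LATS2, the kinase that phosphorylates YAP and TAZ and is itself a target of theirs, doubled its transcript. LATS2 (chr13:20973032-21061547, minus strand) was at 52.8 and 53.0 CPM in siNC and at 113 and 105 CPM in siPRR11 libraries. The libraries of a group lay close together and the groups far apart. This is a log2 fold change of 1.04 (SE 0.0774, edgeR adjusted p = 9.88e-06), or 2.06-fold with an interval of 1.83 to 2.31. This was the 31st largest rise among the 10424 genes averaging 3 or more in log2 CPM. The call held under each of the 12 other settings tried, with log2 fold changes between 0.99 and 1.09. No exon of another gene overlaps those of LATS2.

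Its paralog LATS1 was low and moved little, with 13.0 ± 1.84 CPM in siNC and 13.7 ± 0.256 CPM in siPRR11 cells (SD, n = 2 each). The log2 fold change of LATS1 was 0.07 (SE 0.115, edgeR adjusted p = 0.718). Per length, LATS2 was the main transcript of the pair in every library, with an RPKM ratio to LATS1 of 6.99 and 5.74 in siNC and of 13.0 and 11.7 in siPRR11 libraries. The summed RPKM of both kinases was between 10.6 and 10.97 in siNC and between 20.7 and 22.2 in siPRR11 libraries, and the groups did not overlap.

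Of the coactivators, WWTR1 was the more abundant transcript and YAP1 the one that was called changed. YAP1 (chr11:102110461-102233423, plus strand) was at 48.1 and 53.8 CPM in siNC and at 42.7 and 41.5 CPM in siPRR11 libraries, so that both silenced libraries lay below both controls by a small margin. Its log2 fold change was -0.28 (SE 0.0847, edgeR adjusted p = 0.0449), a level 0.826 times that of the controls (interval 0.727 to 0.939). This call was close to the threshold. It was lost without siNC library 2 (-0.20, adjusted p = 0.147 by edgeR), without siPRR11 library 1 (-0.30, adjusted p = 0.175) or library 2 (-0.25, adjusted p = 0.269), and in limma on log2(RPKM + 1) (-0.20, adjusted p = 0.16) or on log2(RPKM + 0.1) (-0.22, adjusted p = 0.152).

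WWTR1 (chr3:149517235-149736714, minus strand) was at 353 and 437 CPM in siNC and at 375 and 428 CPM in siPRR11 libraries. The control libraries enclosed both silenced ones. Its log2 fold change of 0.02 (SE 0.102, edgeR adjusted p = 0.909) leaves an interval of 0.872 to 1.19 for the ratio of levels. Per length, WWTR1 was 5.48 and 6.08 times as abundant as YAP1 in siNC and 6.57 and 7.73 times in siPRR11 libraries. WWTR1 thus made up between 84.6% and 85.9% of the summed RPKM of both coactivators in siNC and between 86.8% and 88.5% in siPRR11 libraries. Genes of the other strand cover 9.97% of the exonic bases of YAP1 and 9.45% of those of WWTR1, but had at most 457 and 535 counts per library, and the use of strand in counting is not given in the sources used here.

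TEAD1 (chr11:12674591-12944483, plus strand), one of 4 TEAD factors, was at 73.5 and 95.8 CPM in siNC and at 88.7 and 97.5 CPM in siPRR11 libraries, and the groups overlapped. A log2 fold change of 0.14 was estimated (SE 0.11, edgeR adjusted p = 0.445). Its control libraries differed by 1.30-fold, against a median of 1.08-fold over the 10424 genes averaging 3 or more in log2 CPM. Without siNC library 2 the gene was called higher, at 0.34 (edgeR adjusted p = 0.00631), and without siNC library 1 its value was -0.04.

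Among the other TEAD factors, TEAD4 rose from 19.8 ± 0.922 to 27.4 ± 0.531 CPM (SD, n = 2 each), which is 0.47 on the log2 scale (SE 0.0902, edgeR adjusted p = 0.00428). TEAD2, at 8.18 ± 0.194 and 8.76 ± 0.813 CPM, and TEAD3, at 12.7 ± 0.869 and 12.7 ± 1.59 CPM (SD, n = 2 each, siNC first), were not called (adjusted p = 0.618 and 0.985 by edgeR). TEAD1 and TEAD4 were the main TEAD transcripts per length. TEAD4 made up 37.1% and 35.8% of the TEAD RPKM in siNC and 42.2% and 43.3% in siPRR11 libraries, and TEAD1 31.6% and 37.2% and then 30.6% and 33.6%. The RPKM of all 4 factors summed to between 22.3 and 24.6 in siNC libraries and to 28.7 in both siPRR11 libraries.

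**Figure D2:**
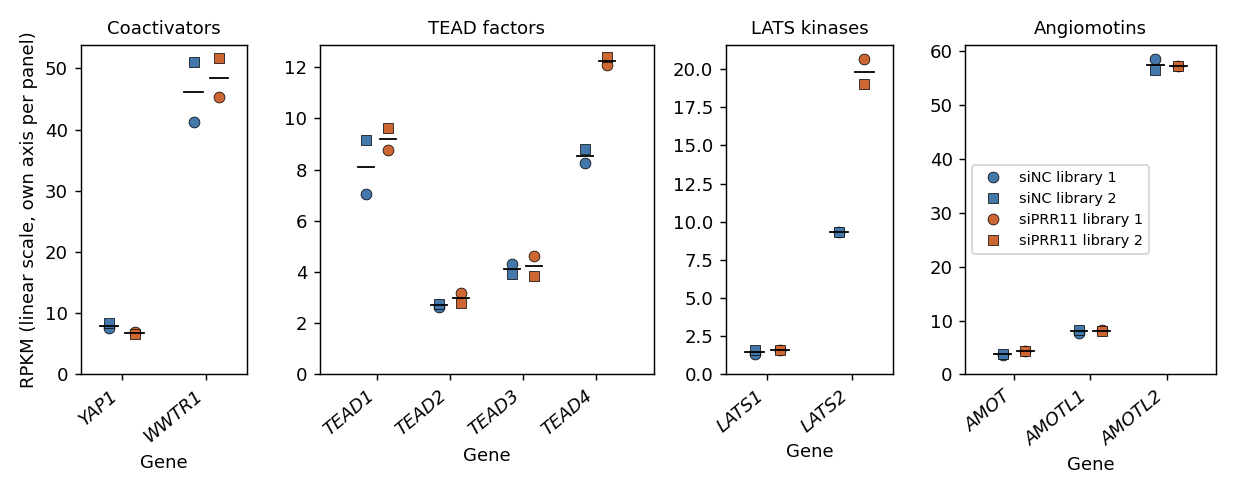
RPKM of the coactivators, TEAD factors, LATS kinases and angiomotins is shown per library on linear axes that start at 0, one axis per panel, with the group mean as a bar. WWTR1, LATS2 and AMOTL2 exceed the other genes of their panels in every library, and LATS2 and TEAD4 are higher in both siPRR11 libraries.

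CTGF and CYR61 encode secreted matrix proteins of the CCN family that bind integrins, and both are direct YAP/TAZ targets. CTGF (chr6:131948176-131951373, minus strand) was at 116 and 94.6 CPM in siNC and at 141 and 138 CPM in siPRR11 libraries, and the groups did not overlap. CTGF thus rose by 0.41 on the log2 scale (SE 0.0929, edgeR adjusted p = 0.0108), or 1.33-fold (interval 1.15 to 1.53). CTGF was called under 11 of the 12 other settings, the exception being limma on log2(RPKM + 1) at an adjusted p of 0.0567. Its size depended on siNC library 2, since it was 0.27 without that library and 0.56 without siNC library 1. An antisense gene with at most 563 counts per library overlaps 8.34% of the exonic bases of CTGF.

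CYR61 (chr1:85580761-85583962, plus strand) was at 469 and 346 CPM in siNC and at 394 and 318 CPM in siPRR11 libraries. In both groups library 1 lay well above library 2, and the groups overlapped. Its log2 fold change was -0.20 (SE 0.13, edgeR adjusted p = 0.348), with an interval of 0.717 to 1.06 for the ratio. The value depended on which libraries were compared. In a fit with the replicate number as a block it was -0.19 (edgeR adjusted p = 0.0124). It was called lower without siNC library 2 (-0.40, adjusted p = 0.00131 by edgeR) or siPRR11 library 1 (-0.36, adjusted p = 0.0254), and was 0.04 without siNC library 1. The RPKM of CYR61 was 3.86 and 3.49 times that of CTGF in siNC and 2.66 and 2.19 times in siPRR11 libraries, so that the ratio was lower in both silenced libraries.

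Of the other CCN genes, WISP2 (CCN5) fell from 44.4 ± 3.67 to 29.8 ± 0.321 CPM (SD, n = 2 each), which is -0.58 on the log2 scale (SE 0.0882, edgeR adjusted p = 0.00121). NOV (CCN3), at 9.62 and 8.49 CPM in siNC and at 7.61 and 7.39 CPM in siPRR11 libraries, was not called (adjusted p = 0.14 by edgeR). WISP1 and WISP3 had too few counts to be tested.

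ANKRD1, a nuclear and sarcomeric ankyrin repeat protein and one of the most responsive YAP/TAZ targets, differed more between libraries of a group than between groups. ANKRD1 (chr10:90912096-90921276, minus strand) was at 25.2 and 16.4 CPM in siNC and at 30.7 and 16.8 CPM in siPRR11 libraries. Library 1 was the high one in both groups. The libraries of a group differed by 1.54-fold in siNC and 1.83-fold in siPRR11 cells, against medians of 1.08-fold and 1.05-fold over the 10424 genes averaging 3 or more in log2 CPM. The estimate was 0.19 on the log2 scale (SE 0.236, edgeR adjusted p = 0.648), and the interval of the ratio, 0.796 to 1.63, was the widest of the 10 genes. It was 0.53 without siNC library 1 and 0.56 without siPRR11 library 2, both called by edgeR (adjusted p = 0.0181 and 0.0028), but -0.09 without siNC library 2 and -0.31 without siPRR11 library 1. Its relative ANKRD2 was at 57.3 and 48.3 CPM in siNC and at 106 CPM in both siPRR11 libraries. ANKRD2 thus rose by 1.01 on the log2 scale (SE 0.0896, edgeR adjusted p = 3.6e-05), a call that held under each of the 12 other settings.

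AMOTL2, an angiomotin that binds YAP at junctions and the actin cytoskeleton (chr3:134355874-134375479, minus strand), was at 356 and 344 CPM in siNC and at 336 and 338 CPM in siPRR11 libraries. AJUBA, the LIM-domain inhibitor of LATS kinases (chr14:22971174-22982642, minus strand), was at 109.6 and 111 CPM in siNC and at 108.7 and 109.4 CPM in siPRR11 libraries. For both genes the silenced libraries lay just below the controls, by less than the test can tell from the spread. Their log2 fold changes were -0.05 (SE 0.0695, edgeR adjusted p = 0.664) and -0.01 (SE 0.0714, edgeR adjusted p = 0.922). The intervals of the ratio, 0.868 to 1.07 for AMOTL2 and 0.889 to 1.10 for AJUBA, were among the narrowest here. On the RPKM scale AJUBA was at 18.0 and 18.2 in siNC and at 18.5 and 18.6 in siPRR11 libraries, so that even the direction of its difference turned with the scaling.

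The relatives AMOT, at 32.4 ± 0.789 and 36.8 ± 0.179 CPM, and AMOTL1, at 82.2 ± 4.16 and 80.5 ± 0.71 CPM (SD, n = 2 each, siNC first), were not called (adjusted p = 0.157 and 0.831 by edgeR). AMOTL2 supplied between 81.9% and 83.6% of the angiomotin RPKM in every library. AJUBA supplied between 87.1% and 88.9% of the summed RPKM of AJUBA, LIMD1 and WTIP.

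AXL, a receptor tyrosine kinase of the TAM family that is activated by GAS6 (chr19:41219203-41261766, plus strand), was at 255 and 254 CPM in siNC and at 225.5 and 211 CPM in siPRR11 libraries. Both silenced libraries lay below both controls. AXL differed by -0.22 on the log2 scale (SE 0.0719), with an interval of 0.768 to 0.955 for the ratio, and its edgeR adjusted p of 0.0538 just missed the threshold. DESeq2 (adjusted p = 0.0344), edgeR without a filter on low counts (0.0298) and the fits without siNC library 1 (0.048) or 2 (0.0448) called it lower at a like size. It was not called in 7 of the 12 other settings, among them limma on log2(RPKM + 1) (adjusted p = 0.129) or log2(RPKM + 0.1) (0.133) and the fits without siPRR11 library 1 (0.145) or 2 (0.41). AXL was nearly the whole of the TAM receptor RPKM, between 95.6% and 96.3% in every library. The TAM receptor TYRO3, a minor one here, fell from 8.13 ± 0.596 to 5.97 ± 0.754 CPM (SD, n = 2 each, log2 fold change -0.45, edgeR adjusted p = 0.0383). Its call was lost in DESeq2, in both limma fits and without siNC library 1 or siPRR11 library 2. The third receptor, MERTK, and the ligands GAS6 and PROS1 were not called.

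**Figure D3:**
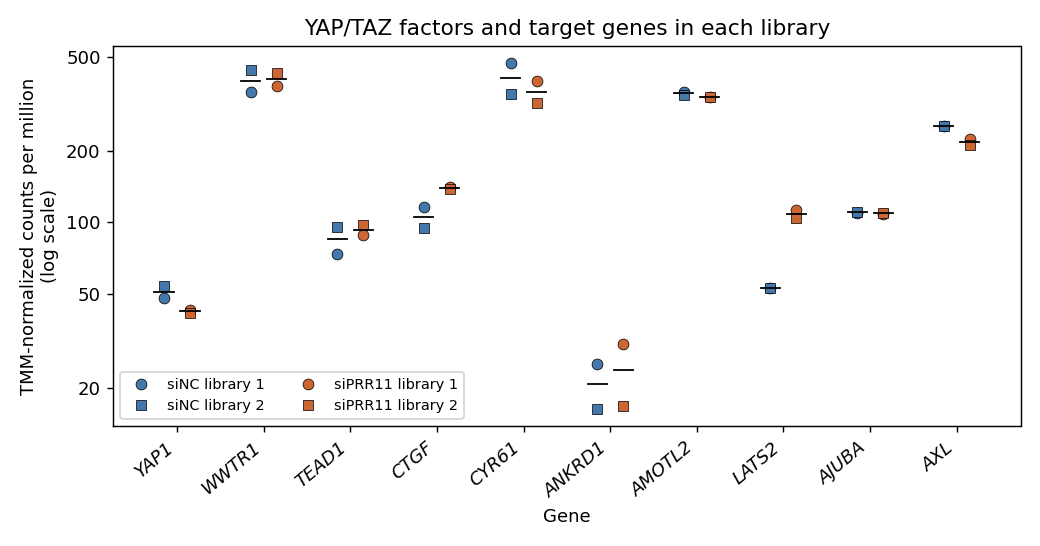
TMM-normalized CPM of the 10 genes is plotted on a log axis for each siNC (blue) and siPRR11 (orange) library, with library 1 as a circle, library 2 as a square and the group mean as a bar. LATS2 is the gene with the clearest gap between groups, whereas in ANKRD1, CYR61, WWTR1 and TEAD1 the libraries of a group lie apart.

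Per length, CYR61 was the most abundant of the 10 transcripts, at 163 ± 34.7 RPKM in siNC cells (SD, n = 2), and its lower library, at 139 RPKM, was above every other gene. AMOTL2 (57.4 ± 1.45 RPKM), AXL (48.6 ± 0.178 RPKM), WWTR1 (46.1 ± 6.91 RPKM) and CTGF (44.2 ± 6.29 RPKM) followed (SD, n = 2 each). Within this group only AMOTL2 had both libraries above those of the next gene, and AXL, WWTR1 and CTGF did not differ beyond their spread. AJUBA came next at 18.1 ± 0.124 RPKM. ANKRD1 (10.3 ± 3.09), LATS2 (9.33 ± 0.0201), TEAD1 (8.10 ± 1.499) and YAP1 (7.96 ± 0.613) were the lowest, in RPKM with SD and n = 2 each, and neighbours in this order overlapped except for LATS2 above TEAD1. In siPRR11 cells LATS2, at 19.8 ± 1.13 RPKM (SD, n = 2), stood above AJUBA at 18.5 ± 0.0396 RPKM, and CTGF, at 60.7 ± 1.09 RPKM, above AMOTL2 at 57.2 ± 0.0626 RPKM. YAP1, at 6.79 ± 0.158 RPKM, was again the lowest.

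**Figure D4:**
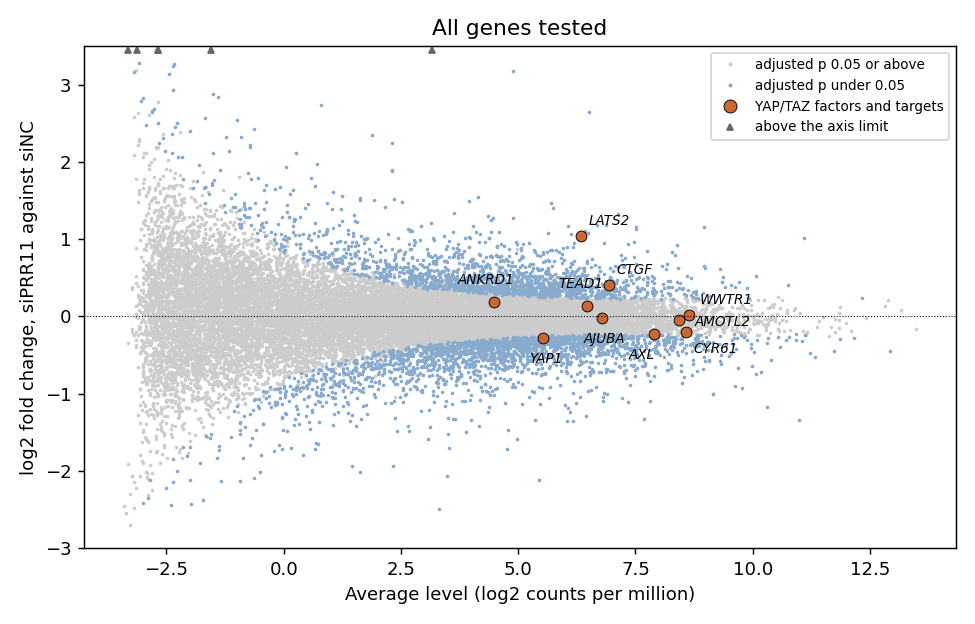
Each of the 21630 genes tested is placed by its average level and its log2 fold change in siPRR11 against siNC cells, with called genes in blue and the 10 YAP/TAZ factors and targets in orange. LATS2 lies at 1.04 and the other 9 genes between -0.28 and 0.41, and arrowheads mark genes above the axis limit.

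The wider Hippo pathway, upstream regulators together with nuclear partners of YAP and TAZ, was followed through 47 other genes. Of the 47, 45 could be tested (VGLL2 was not matched and VGLL1 had too few counts). Of the 45, 8 were called higher, among them the nuclear partners TEAD4 and VGLL4, and 6 lower, and 31 were not called. The shares over all genes tested were again 7.61% and 9.14%. Over the genes averaging 3 or more in log2 CPM, as most of these do, they were 11.6% and 14.3%. Their median log2 fold change was 0.08, against 0.00 for all genes. The number of calls varied with the libraries used, as did that over all genes, and both are given below.

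Among the kinases and scaffolds, 3 of 21 genes rose and 4 fell, beside 7.61% and 9.14% of all genes tested. The shares were 11.6% and 14.3% of the genes averaging 3 or more in log2 CPM, as most of the 21 do. TNIK, a kinase that can activate LATS in place of MST1 and MST2, fell most, from 27.5 and 30.5 CPM in siNC to 13.1 and 11.6 CPM in siPRR11 libraries, which is -1.23 on the log2 scale (SE 0.103, edgeR adjusted p = 2.3e-05). MAP4K4, another such kinase, fell from 375 ± 22.3 to 235 ± 20.3 CPM (SD, n = 2 each), by 0.67 on the log2 scale (SE 0.0821), and both calls held under each of the 12 other settings. TAOK1 and TAOK3, which phosphorylate MST kinases, had log2 fold changes of -0.36 and -0.44, calls that were lost in both limma fits and, for TAOK3, without siPRR11 library 2. In the other direction MAP4K3 had a log2 fold change of 0.35, a call lost in both limma fits and without siNC library 1 (0.19) or siPRR11 library 2. WWC2 and WWC3, scaffolds of the KIBRA family that assist LATS activation, rose by 0.52 and 0.32. The rise of WWC2 held under each of the 12 other settings, although an antisense gene with at most 114 counts per library overlaps 25.9% of its exonic bases. That of WWC3 was lost in limma on log2(RPKM + 1) and without either siPRR11 library. Of the genes that act on LATS kinases, STK3, SAV1, STK4 and NF2 were not called. STK3 was at 42.7 ± 0.486 and 50.2 ± 0.191 CPM (adjusted p = 0.0634), STK4 at 56.8 ± 4.88 and 54.3 ± 0.23 CPM (adjusted p = 0.672), and NF2 at 101 ± 1.83 and 86.5 ± 6.36 CPM (SD, n = 2 each, siNC first, edgeR adjusted p = 0.0772). SAV1 was at 9.52 and 9.54 CPM in siNC and at 11.8 and 12.2 CPM in siPRR11 libraries, 0.33 on the log2 scale (SE 0.104, edgeR adjusted p = 0.0515), and its groups did not overlap. ATL1, on the other strand, overlaps 14.9% of the exonic bases of SAV1. It had between 479 and 874 counts per library, against 553 to 1109 for SAV1, so reads of these genes may not be told apart. STK3 was called higher with a minimum of 10 counts in each library (edgeR adjusted p = 0.0479), and NF2 lower without siNC library 1 (edgeR adjusted p = 0.0424).

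Of the nuclear partners, TEAD4, given above, and VGLL4, which competes with YAP for TEAD factors, were called. VGLL4 rose from 14.6 ± 0.736 to 20.8 ± 0.467 CPM (SD, n = 2 each), which is 0.51 on the log2 scale (SE 0.0952, edgeR adjusted p = 0.00396). ATG7, on the other strand, overlaps 22.1% of the exonic bases of VGLL4 and had up to 1402 counts per library, so reads of these genes may not be told apart. At junctions, PTPN14, a phosphatase that binds YAP and is also a YAP/TAZ target, and MPP5, a Crumbs complex scaffold, were called higher, by 0.37 and 0.25. The polarity protein PARD3 was called lower, at -0.36. Without siPRR11 library 1 the calls of PARD3 and MPP5 were lost, without siPRR11 library 2 those of PTPN14 and MPP5, without siNC library 1 those of PTPN14 and MPP5, and in both limma fits all 3. Of the atypical cadherins and their regulators, FAT4 rose by 0.35, which was lost without either siPRR11 library and in both limma fits, and FJX1, a kinase of these cadherins that is itself a YAP/TAZ target, fell by 0.46. The most abundant of them, FAT1, was at 692 ± 42.8 and 651 ± 6.57 CPM (SD, n = 2 each, siNC first) and was not called (adjusted p = 0.459 by edgeR).

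Another 16 genes outside the 10 belong, with AMOTL2, LATS2, CTGF, CYR61, ANKRD1 and AXL, to a published set of YAP/TAZ targets shared by many cancer types. Among the 16, PTPN14 and FJX1 were also in the Hippo lists above, so their calls count in both sets. All 16 could be tested, and 5 were called higher and 5 lower, beside 7.61% and 9.14% of all genes tested. Among the genes averaging 3 or more in log2 CPM, as most of the 16 do, the shares were 11.6% and 14.3%. The calls were evenly divided between the directions, and the median log2 fold change was 0.09.

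IGFBP3, a secreted binder of insulin-like growth factors, was at 85.1 and 68.4 CPM in siNC and at 153 and 144 CPM in siPRR11 libraries. It rose by 0.95 on the log2 scale (SE 0.0988, edgeR adjusted p = 0.00011). F3, the tissue factor that starts coagulation, ARHGEF17, a guanine nucleotide exchange factor, CRIM1, a membrane protein that binds BMPs, and PTPN14 rose by 0.62, 0.47, 0.45 and 0.37. CRIM1 was abundant, at 703 ± 15 and 959 ± 9.97 CPM (SD, n = 2 each, siNC first). The rise of IGFBP3, ARHGEF17 and CRIM1 held under each of the 12 other settings, and that of F3 was lost in both limma fits.

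Of the 5 targets that fell, NT5E and FOXF2 had the largest changes. NT5E, the ecto-5′-nucleotidase CD73, was at 10.4 and 15.3 CPM in siNC and at 4.38 and 4.16 CPM in siPRR11 libraries, or -1.58 on the log2 scale (SE 0.166, edgeR adjusted p = 0.000118). FOXF2, a forkhead transcription factor, was at 3.89 and 4.76 CPM in siNC and at 1.47 and 1.74 CPM in siPRR11 libraries, or -1.42 on the log2 scale (SE 0.181, edgeR adjusted p = 0.000378). Both control libraries exceeded both silenced ones for each gene. On the log2(RPKM + 1) scale, where low genes move less, limma gave -0.94 and -0.75, and both were called there too. CCDC80, a secreted matrix protein at 1015 ± 154 CPM in siNC and 638 ± 83.4 CPM in siPRR11 cells (SD, n = 2 each), ASAP1, an ARF GTPase-activating protein, and FJX1 had log2 fold changes of -0.67, -0.49 and -0.46. ASAP1 was not called in either limma fit, nor CCDC80 on the log2(RPKM + 1) scale. The value of ASAP1 was -0.64 without siNC library 1 and -0.33 without siNC library 2. The 6 targets that were not called included MYOF, at 1074 ± 93.9 and 1100 ± 64.8 CPM, and GADD45A, at 132 ± 21.7 and 147 ± 29.1 CPM (SD, n = 2 each, siNC first, adjusted p = 0.815 and 0.448 by edgeR).

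**Figure D5:**
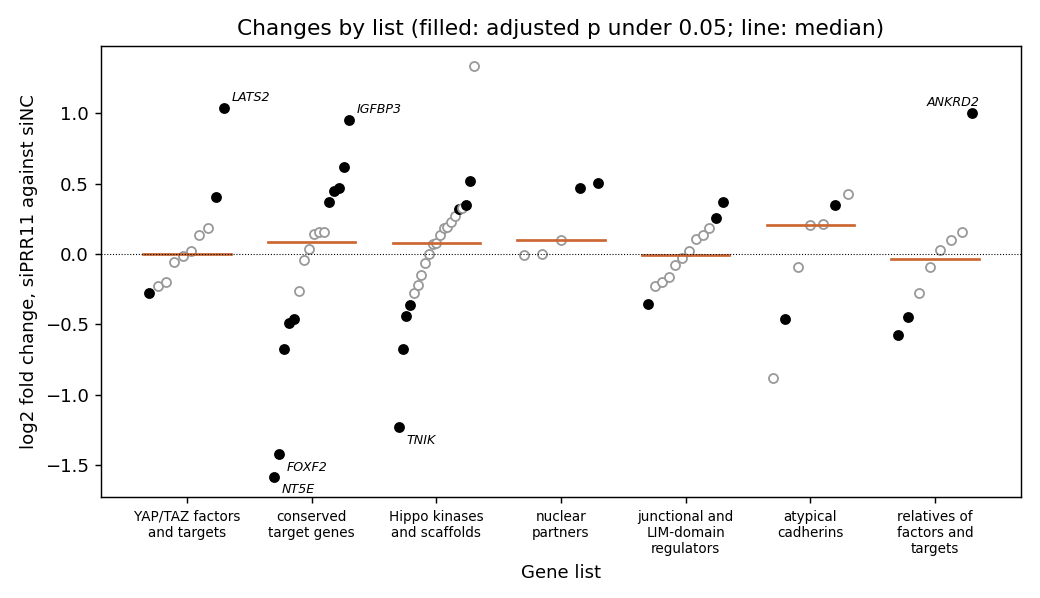
The log2 fold change in siPRR11 against siNC cells is drawn for each tested gene of the YAP/TAZ factors and targets, of the other conserved targets, of the 4 Hippo pathway lists and of the relatives of the factors and targets, with called genes filled and the median of a list as a line. PTPN14 and FJX1 are drawn both with the conserved targets and in a Hippo pathway list. The list medians lie between -0.03 and 0.21, and each list holds called genes on both sides of 0 except the nuclear partners, where TEAD4 and VGLL4 are both above it.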

How the data were processed

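RNA-seq was performed on ACHN cells with 2 siNC and 2 siPRR11 libraries. Per the study's methods and the submitters' processing notes, the authors prepared stranded libraries, trimmed the reads with Trimmomatic 0.36, used STAR for alignment to the human genome (GRCh38) and assigned reads to genes by featureCounts (Subread 1.5.1). The annotation release and the strand setting are not given in the sources used here. The authors deposited raw read counts per gene and RPKM values, which equal count over exonic length and column total to within 3.08e-06% for 15916 genes with over 50 counts in every library. All columns of samples were used, and 2 gene names occurred more than once.

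Counts were compared by edgeR's quasi-likelihood test (edgeR 4.0.16, R 4.3.3) with TMM normalization, filterByExpr (21630 genes kept, 14729 left out) and condition as the only term, with Benjamini-Hochberg adjustment over the genes tested. The standard error is the log2 fold change over the square root of F, and 95% intervals use the t distribution of the fit. Alternatives were RLE scaling, no filter, a minimum of 10 counts per library, a block for the replicate number, the exact test of edgeR, DESeq2 1.42.0, limma 3.58.1 with a variance trend on log2(RPKM + 1) or log2(RPKM + 0.1), and each library left out in turn. With 1 library left in a group, it is assumed to vary like the other group. Libraries of 1 group differed by more than sampling noise (chi-square per degree of freedom 21.0 and 14.4). In simulated data of 21228 genes for this comparison, the main test recovered 44 of 100 genes changed by 0.5 and 78 of 100 changed by 1 on the log2 scale, with 7 false calls. The changed genes were drawn at random over all levels and were far fewer than those called in the data. Every simulated gene followed the dispersion trend, and the libraries were drawn independently. Genes off the trend, and likeness between libraries of the same number, were thus not simulated. These shares and the number of false calls therefore need not hold for the data or for the 10 YAP/TAZ genes.

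The genes and lists were chosen with earlier results of these data known. Named genes are the 10 YAP/TAZ genes, PRR11, the called genes of the lists, 10 pathway genes fixed by name (TEAD2, TEAD3, TEAD4, VGLL4, LATS1, STK3, STK4, NF2, AMOT and AMOTL1), and the 3 genes nearest in pattern to the largest rise and the largest fall. Markers, and uncalled genes that complete a family or list, were added after their values were seen. Some of the marker and nearest genes are not reported here. Promoters came from RefSeq (GRCh38.p14), and exonic overlaps from the deposited exon coordinates.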

Additional observations from a re-analysis of the deposited data

How the results depend on the processing

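The changes of PRR11 (log2 fold change between -1.54 and -1.41 without single libraries), LATS2, ANKRD2, TEAD4 and TNIK were called under each of the 12 alternatives. With the replicate number as a block, 5 of the 10 YAP/TAZ genes, 24 other Hippo genes and 6988 genes in all were called, against 3, 14 and 3622, the added YAP/TAZ genes being CYR61 (-0.19, adjusted p = 0.0124 by edgeR) and AXL (-0.22, adjusted p = 0.00207), and the added Hippo genes including STK3 (0.00437) and NF2 (0.003). Differences between library 1 and library 2 correlated with r = 0.55 between the groups over 10424 genes, which are not independent. With only 2 pairs and no label of a shared batch, whether libraries of the same number share an origin is not known. Limma on log2(RPKM + 1) called 1 of the 10 genes, 6 other Hippo genes, 6 conserved targets and 1775 genes in all, and on log2(RPKM + 0.1) 7 other Hippo genes and 1878 in all, with 61.5% and 61.3% of all calls higher against 45.4%. Without single libraries the counts were 3 to 5 of the 10 genes (5 without either siNC library), 9 to 16 other Hippo genes and 2172 to 4590 in all. Directions turned without single libraries for WWTR1 (-0.13 to 0.18), TEAD1 (-0.044 to 0.34), CYR61 (-0.40 to 0.036), ANKRD1 (-0.31 to 0.56), LATS1 (-0.070 to 0.22), STK4 (-0.15 to 0.023), TEAD3 (-0.14 to 0.12) and AMOTL1 (-0.084 to 0.018), and with limma on log2(RPKM + 1) or log2(RPKM + 0.1) for AJUBA (0.031 and 0.033), AMOTL1 (0.016 and 0.018) and TEAD3 (0.033 and 0.039; 0.0034 with at least 10 counts in every library). The cause was not tested. Of the calls in the lists, 6 of 14 Hippo genes, 6 of 10 conserved targets and 2 of 3 relatives held under all 12 alternatives. PTPN14 and FJX1 are in both of the first lists, and FJX1 is among those that held in each. The share of all called genes that held under them was not computed, so these counts cannot be set against other genes. The smallest count of the 10 genes was 950, and the effect of depth was not tested.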

Other observations

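The genes whose pattern over the 4 libraries was nearest to that of LATS2, by Euclidean distance of centred log2 CPM (pseudocount 0.5) among 10414 other genes averaging 3 or more in log2 CPM, were CDKN1A, PPM1K and C1S, at distances of 0.0437, 0.0539 and 0.0566. CDKN1A, the cell cycle inhibitor p21, was at 45.5 and 44.2 CPM in siNC and at 97.5 and 90.5 CPM in siPRR11 libraries. Among the genes nearest to YAP1 were SNRK and GSKIP, at 0.00417 and 0.0211, neither of which was called by edgeR's quasi-likelihood test (adjusted p = 0.0869 and 0.142). The likeness is over 4 libraries in 2 groups and only describes these libraries.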
